A study of Mus musculus with 2 samples.

Results

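The genes described here are 41 mouse genes of DNA replication and entry into S phase, the stage of the cell cycle in which DNA is copied. They were listed by function and found on the array through the RefSeq accession of each probe. All 41 were on the array, with 57 probes, among 23462 named genes. The RNA came from splenic CD8 T cells of C57BL/6 mice, selected as naive by low CD44 and high CD62L and activated in culture. Both cultures received plate-bound antibodies to TCR-β (3 µg/ml) and CD28 (1 µg/ml) with interleukin-2 (10 ng/ml) for 2 days, then 3 days in interleukin-2 on a new plate. The prednisolone culture had 1 µM prednisolone, a synthetic glucocorticoid, in the stimulation medium, and the vehicle culture had vehicle. RNA was taken on day 5 and hybridised to 1 Agilent array per culture. With 1 array in each group there is no test between the cultures, and all differences below describe these 2 RNA samples.

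In each cell cycle, replication is prepared in G1, when the origin recognition complex, CDC6 and CDT1 load the MCM helicase onto origins. Cyclin E with its kinase, and later CDC45, MCM10 and the GINS complex, turn the loaded helicase into a moving fork. There primase and polymerase α start new strands, polymerases δ and ε extend them, and the ring-shaped clamp PCNA, placed by replication factor C, holds the polymerase on DNA. Many of these genes are transcribed by E2F factors, which the retinoblastoma protein restrains. Naive T cells hold most of this machinery at low levels and induce it after activation.

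A value is the processed signal of a gene's probes divided by the 75th percentile of all non-control spots on the same array, called the relative signal. A difference is the log2 of prednisolone over vehicle. Its ±, called the software's error, is built from the errors that the scanner software assigned to the spots of both arrays. Averaging over a gene's probes, taken as independent, makes it smaller, from about 0.20 for 1 probe to about 0.14 for 2. It does not cover variation between cultures. Of the 41 genes, 37 had a probe well above background on both arrays and free of an outlier flag. Cdt1, Prim1 and Prim2 had only probes flagged for an unusual local background, and Ccne2 was well above background only on the prednisolone array. The share of spots well above background was 53.5% for either culture, and no spot was saturated. All 7 named CD8 T cell markers on the array were well above background on both arrays, with summed relative signals of 573 with prednisolone and 721 with vehicle. Cd3d (128 with prednisolone and 192 with vehicle), Cd3e, Cd3g, Lck and Cd8b1 were lower with prednisolone. Slightly higher were Cd8a (15.6 with prednisolone and 15.1 with vehicle) and Cd2 (116 with prednisolone and 108 with vehicle). Of the markers listed for other cells, some did not exceed background clearly on any array. These were Cd79a and Ms4a1 of B cells, Ncr1 of NK cells, Lyz2 and Adgre1 of myeloid cells, Klf1 of erythroid cells and Cd40lg of CD4 T cells. Other markers of the same lists did so on both. They were 2 of 5 for B cells (Cd79b, Pax5), 2 of 4 for NK cells (Klrb1c, Eomes) and 3 of 5 for myeloid cells (Csf1r, Itgam, Cd68). For erythroid cells they were 2 of 3 (Hba-a1, Epor), and for CD4 T cells 3 of 4 (Cd4, Zbtb7b, Foxp3). The summed signals of 5 B cell markers were 4.27 with prednisolone and 3.24 with vehicle, mostly from Cd79b (4.20 with prednisolone and 2.65 with vehicle). Vpreb3 went the other way (0.0237, not well above background, with prednisolone and 0.529 with vehicle). The sums of 4 NK cell markers were 1.66 with prednisolone and 7.36 with vehicle, mostly from Eomes (1.40 with prednisolone and 7.26 with vehicle). Klrb1c hardly differed (0.0604 with prednisolone and 0.0576 with vehicle). Klra8 went the other way (0.196 with prednisolone and 0.0295, not well above background, with vehicle). For 5 myeloid markers the sums were 10.3 with prednisolone and 11.4 with vehicle, mostly from Itgam (8.94 with prednisolone and 7.91 with vehicle). Cd68 was lower with prednisolone (0.562, against 2.61 with vehicle). For 3 erythroid markers the sums were 3.71 with prednisolone and 0.65 with vehicle. There Hba-a1, an α-globin gene, was higher (3.64 with prednisolone and 0.233 with vehicle) and Epor lower (0.0515 with prednisolone and 0.399 with vehicle). For 4 CD4 T cell markers the sums were 2.77 with prednisolone and 3.60 with vehicle. There Zbtb7b (0.917 with prednisolone and 1.75 with vehicle) and Foxp3 (0.139 with prednisolone and 0.234 with vehicle) were lower. Cd4 was slightly higher (1.70 with prednisolone and 1.60 with vehicle). The part of these differences in the replication values was not tested. These values do not show which cells carried the RNA, the CD8 T cells themselves included. Fewer cells of a type cannot be told apart from less RNA per cell.

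The replication genes were mostly higher with prednisolone, by modest amounts. Of the 37 with a value, 33 lay above 0, where 50.1% of all 11969 genes with a value did. Their median difference was 0.49, or 1.40-fold, against 0.0015 for all genes, and their interquartile range ran from 0.16 to 0.73. A difference of 1.5-fold or more upward was seen for 15 of the 37, against 14.5% of all genes, and none was 1.5-fold lower, against 15.2% of all genes. Only Orc1 and Ccne1 were at least 2-fold higher, a count near the 5.76% of all genes that were, and none was 2-fold lower, where 6.62% of all genes were. The difference lay above 0 by more than the software's error for 28 genes, was within that error for 8, and lay below 0 by more than it for Lig1. For Lig1 (−0.146 against 0.144) and Gins2 (0.146 against 0.144) this rests on averaging 2 probes with an error of 0.204 each. The share of all genes beyond their own error was not counted, so these counts lack a share to be read against. Over all genes the differences had a standard deviation of 0.73, and the median software error was 0.20.

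These counts are read against genes of all brightness. Among the 6312 genes brighter than the 75th percentile, the median difference was 0.05, 53.9% lay above 0 and 14.1% were at least 1.5-fold higher. Scaling the arrays on 8 spike-in control probes instead of the 75th percentile adds 0.23 to every difference, the median of all genes included. It lifts Orc6, Gins3, Pola1 and Lig1, the 4 genes below 0, above it. With that scaling 68.5% of all genes lay above 0, and 24.7% were higher and 9.37% lower by 1.5-fold or more, where 23 of the 37 replication genes were higher and none lower. By 2-fold or more 8 were higher, against 9.55% of all genes. The median of the replication genes stayed 0.49 above that of all genes.

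**Figure D1:**
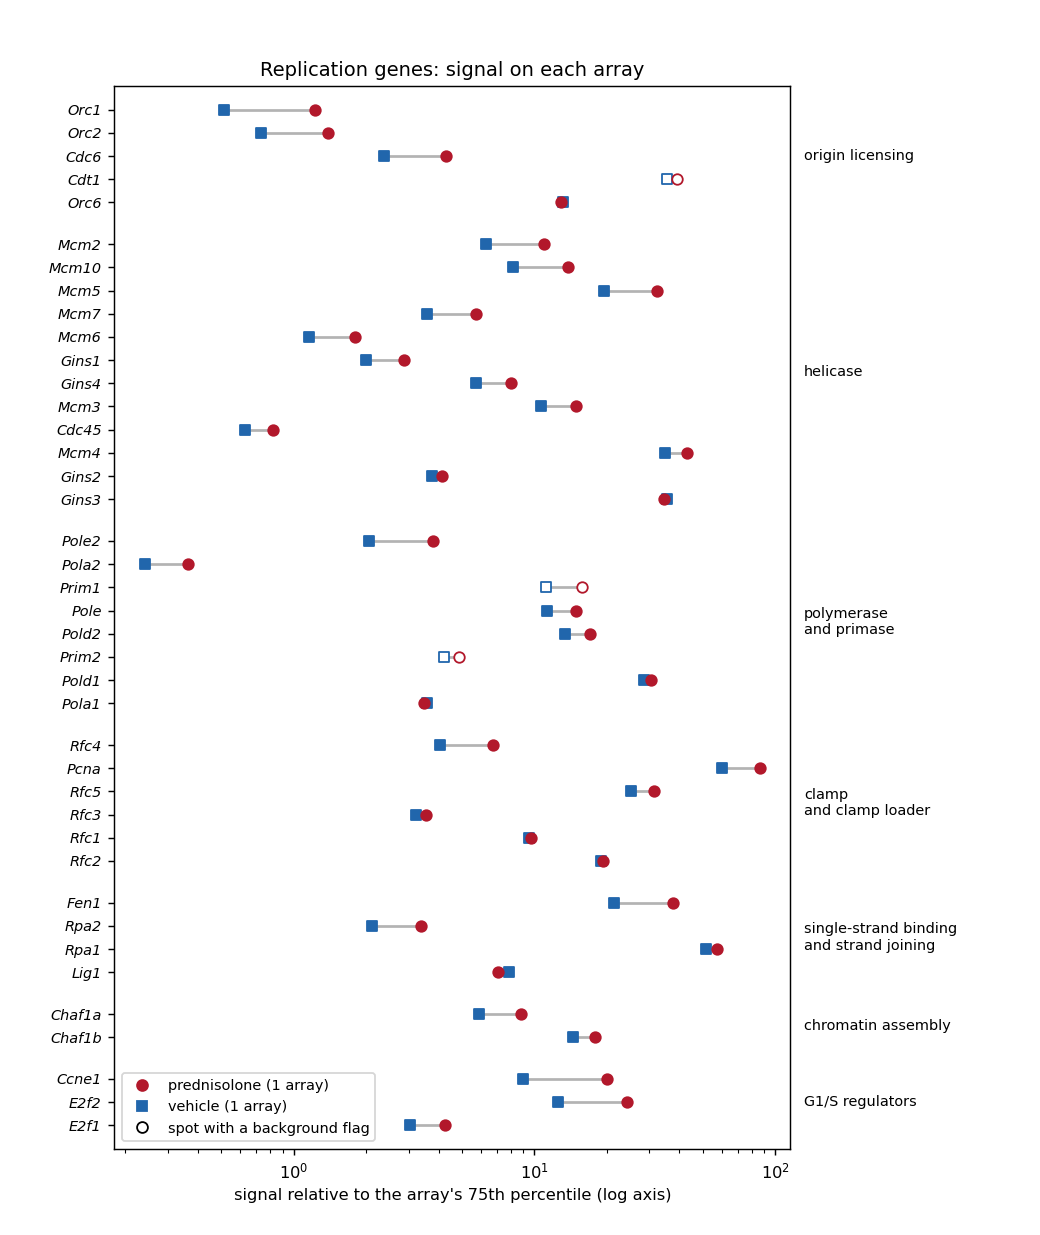
Relative signal of 40 replication genes on a log axis, with prednisolone as circles and vehicle as squares (1 array each), grouped by role. Open symbols mark Cdt1, Prim1 and Prim2, which have only a background-flagged spot. The circle lies to the right of the square for all but Orc6, Gins3, Pola1 and Lig1.

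Origin licensing held some of the larger differences and also genes with almost none. Orc1, the ATP-binding large subunit of the origin recognition complex, had a relative signal of 1.22 with prednisolone and 0.513 with vehicle. This was the largest difference of the 37 genes, at 1.25 ± 0.15 or 2.38-fold higher, with its 2 probes at 1.13 and 1.38. Orc2, another subunit of the complex, had 1.39 with prednisolone and 0.734 with vehicle, a difference of 0.92 ± 0.15. Its probes gave 0.73 and 1.11, the widest gap between probes of any of these genes. Cdc6, the ATPase that joins the complex at the origin to load MCM, had 4.30 with prednisolone and 2.38 with vehicle, or 0.85 ± 0.14. Of the 4 licensing genes with a value, these 3 were above 0 and at least 1.5-fold higher, against 50.1% and 14.5% of all genes. Orc6, the small subunit, had 12.9 with prednisolone and 13.1 with vehicle (−0.03 ± 0.20). Cdt1, which brings MCM to the origin, had 39.1 with prednisolone and 35.6 with vehicle from its flagged spot (0.14 ± 0.20).

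The 3 remaining subunits of the origin recognition complex belong to a wider replication list and were named after their values were seen. Orc3, Orc4 and Orc5 differed by −0.11 ± 0.15, 0.25 ± 0.12 and −0.02 ± 0.17. The subunits of the complex thus spanned from −0.11 to 1.25. Gmnn, the gene of geminin, which blocks CDT1 and with it repeated licensing, was 0.30 ± 0.14, also named after its value was seen.

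The helicase group had a median of 0.49 over 12 genes, with 11 above 0 and 5 at least 1.5-fold higher. Of all genes 50.1% lay above 0 and 14.5% were at least 1.5-fold higher. Mcm2, a subunit of the MCM ring, had 11.0 with prednisolone and 6.30 with vehicle, a difference of 0.80 ± 0.20. Mcm5 had 32.3 with prednisolone and 19.4 with vehicle, or 0.73 ± 0.20. Mcm7 had 5.71 with prednisolone and 3.57 with vehicle, or 0.68 ± 0.14, with probes at 0.62 and 0.74. These ring subunits were at least 1.5-fold higher with prednisolone, and so was Mcm6, but after normexp Mcm7 (0.57) and Mcm6 (0.51) were not. Mcm6 had 1.79 with prednisolone and 1.16 with vehicle (0.63 ± 0.20), and its brighter probe, left out for a background flag, gave 0.45. It was also below 1.5-fold with that spot kept (0.54) and without scaling (0.58). Mcm3 had 14.8 with prednisolone and 10.7 with vehicle (0.47 ± 0.14), with a flagged probe, left out, at 0.53. Mcm4 was the lowest of the ring, with 42.9 with prednisolone and 34.7 with vehicle (0.31 ± 0.20). All the ring subunits from Mcm2 to Mcm7 were therefore higher with prednisolone by more than the software's error, over a span from 0.31 to 0.80.

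The factors that activate the ring spread more widely. Mcm10, which helps start unwinding and is no part of the ring, had 13.7 with prednisolone and 8.16 with vehicle, a difference of 0.75 ± 0.20. Cdc45, a core part of the active helicase, had 0.821 with prednisolone and 0.629 with vehicle, or 0.39 ± 0.15, with probes at 0.24 and 0.53. The GINS genes, whose products form a 4-part complex at the fork, did not share one value. Gins1 had 2.87 with prednisolone and 2.01 with vehicle (0.51 ± 0.14), and Gins4 had 7.97 with prednisolone and 5.73 with vehicle (0.47 ± 0.14, probes 0.30 and 0.65). Gins2 had 4.14 with prednisolone and 3.74 with vehicle (0.15 ± 0.14). Gins3 had 34.5 with prednisolone and 35.6 with vehicle (−0.05 ± 0.20). Gins1 and Gins4 were higher by more than the error, Gins2 only just, and Gins3 lay within it.

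Among the polymerase and primase genes, 6 had a value, with a median of 0.37. Among these 6, the 2 largest differences were those of accessory subunits. Accessory subunits of the wider replication list varied, with Pold4 at −1.80 ± 0.20, Pold3 at 0.18 ± 0.14, Pole3 at 0.30 ± 0.20 and Pole4 at 0.45 ± 0.20. All of these but Pold4 were named after their values were seen. Pole2, the second subunit of polymerase ε, had 3.79 with prednisolone and 2.06 with vehicle, or 0.88 ± 0.20. Pola2, the regulatory subunit of polymerase α, had 0.364 with prednisolone and 0.242 with vehicle, or 0.59 ± 0.21. It is the dimmest of the 37 genes on both arrays, and its difference was 0.36 after another background correction (normexp). The catalytic subunits lay lower. Pole had 14.9 with prednisolone and 11.3 with vehicle (0.40 ± 0.20). Pold1, of polymerase δ, had 30.6 with prednisolone and 28.5 with vehicle (0.10 ± 0.20). Pola1 had 3.46 with prednisolone and 3.60 with vehicle (−0.05 ± 0.14). In each of the polymerases α, δ and ε the second subunit gene thus had a higher difference than the catalytic one, by 0.64 ± 0.26, 0.24 ± 0.29 and 0.48 ± 0.29, so that the gap for δ is within the software's error. Pold2, the second subunit of polymerase δ, had 17.0 with prednisolone and 13.4 with vehicle (0.35 ± 0.20). The primase genes had flagged spots only, with Prim1, the catalytic one, at 15.8 with prednisolone and 11.2 with vehicle (0.50 ± 0.20) and Prim2 at 4.86 with prednisolone and 4.22 with vehicle (0.20 ± 0.20).

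The clamp and its loader had the lowest median of the 7 role groups, 0.22 over 6 genes. At least 1.5-fold higher was 1 of the 6, near the 14.5% of all genes. Pcna, the gene of the clamp, had 86.1 with prednisolone and 60.1 with vehicle, a difference of 0.52 ± 0.20. Rfc4, a small subunit of the loader, had 6.74 with prednisolone and 4.07 with vehicle, or 0.73 ± 0.14, with probes at 0.66 and 0.80. The other loader genes lay nearer 0. Rfc5 had 31.3 with prednisolone and 25.1 with vehicle (0.32 ± 0.20), and Rfc3 had 3.54 with prednisolone and 3.23 with vehicle (0.13 ± 0.14). Rfc1, the large subunit, had 9.69 with prednisolone and 9.45 with vehicle (0.04 ± 0.20), and Rfc2 had 19.2 with prednisolone and 18.9 with vehicle (0.03 ± 0.20). The values of Rfc1 and Rfc2 fell below 0 without scaling (−0.01 and −0.02) and after quantile normalization (−0.03 and −0.05).

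Behind the fork, RNA-primed fragments of the lagging strand are trimmed by the flap nuclease FEN1 and sealed by DNA ligase I. Fen1 had 37.6 with prednisolone and 21.3 with vehicle, a difference of 0.82 ± 0.20. Lig1, the ligase gene, had 7.08 with prednisolone and 7.83 with vehicle, or −0.15 ± 0.14, the lowest of the 37 genes. Its probes disagreed, with the brighter one at 0.01 and the dimmer one, which carries a different transcript accession, at −0.30. The difference of Fen1 thus exceeded that of Lig1 on either of the Lig1 probes. Rpa2, the middle subunit of the protein that coats single-stranded DNA, had 3.37 with prednisolone and 2.12 with vehicle (0.67 ± 0.20), while Rpa1, the large subunit, had 57.5 with prednisolone and 51.6 with vehicle (0.16 ± 0.20). For chromatin assembly factor 1, which places histones on the new DNA, Chaf1a had 8.80 with prednisolone and 5.89 with vehicle (0.58 ± 0.20). Its partner Chaf1b had 17.8 with prednisolone and 14.4 with vehicle (0.30 ± 0.20).

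The regulators of the G1-to-S step had the highest group median, 0.96 over 3 genes, though with the brightest probe alone that of origin licensing was higher (1.003, against 0.92 for the regulators). Ccne1, the gene of cyclin E1, had 20.0 with prednisolone and 8.99 with vehicle, a difference of 1.16 ± 0.20 or 2.23-fold higher. Ccne2, the gene of cyclin E2, was dim, with 0.0574 with prednisolone and 0.0238, not well above background, with vehicle. Its 1 probe gave 1.27 ± 0.49. Put in place of its own, the lowest vehicle signal of any spot well above background (0.0320) gave 1.79-fold higher, which is no firm bound. E2f2, a transcription factor of the activating E2F class, had 24.3 with prednisolone and 12.5 with vehicle, or 0.96 ± 0.14, with probes at 0.92 and 1.001. E2f1, of the same class, had 4.27 with prednisolone and 3.04 with vehicle, or 0.49 ± 0.20. The 3 regulators with a value, Ccne1, E2f1 and E2f2, were thus brighter on the prednisolone array, where 50.1% of all genes lay above 0.

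**Figure D2:**
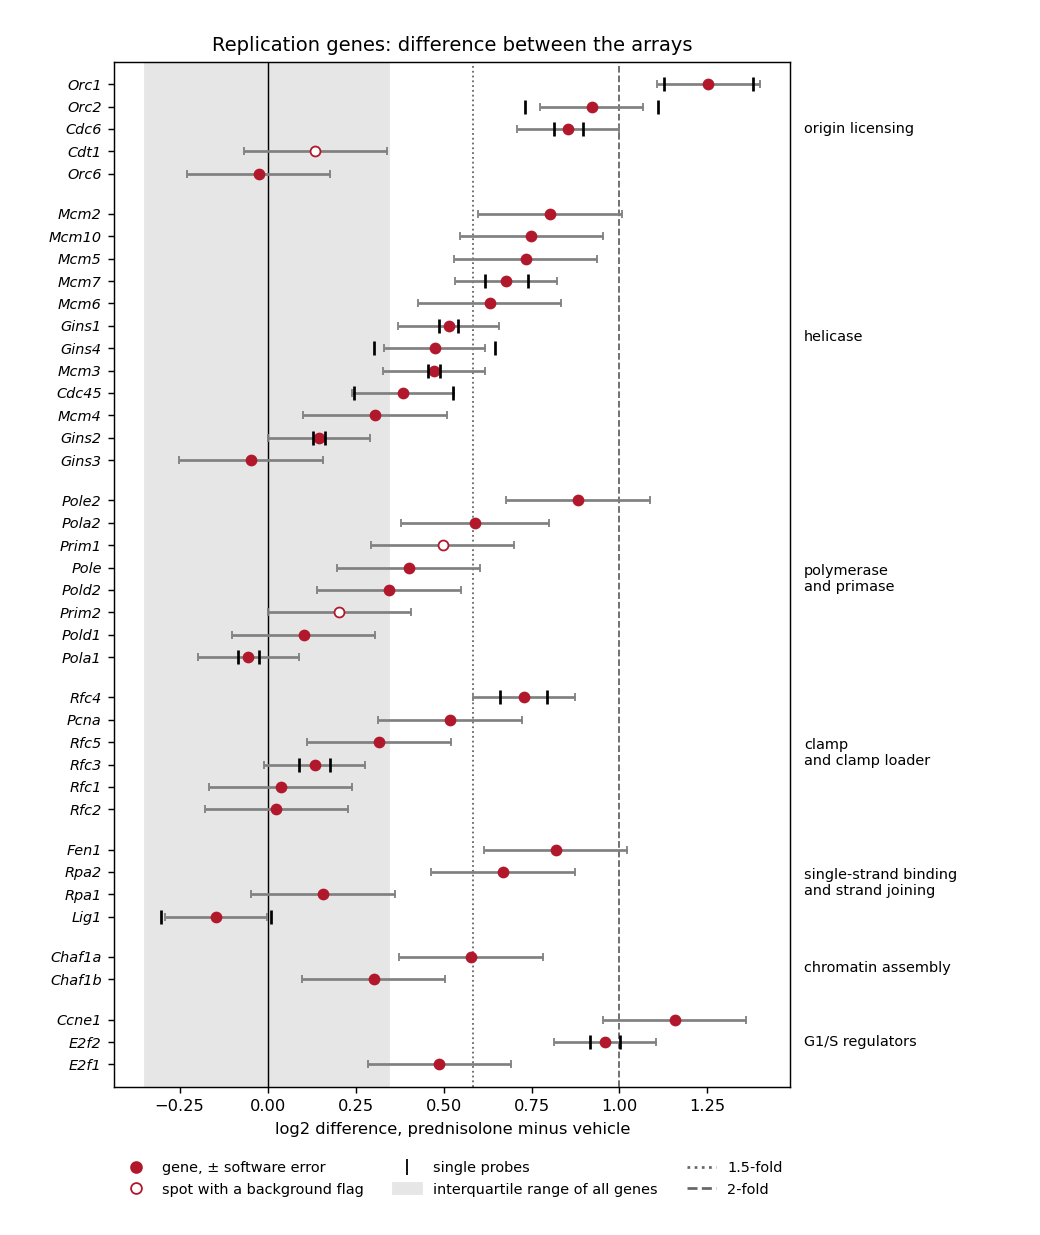
Log2 difference, prednisolone minus vehicle, for 40 replication genes by role. Circles give the gene with the scanner software's error (open where only a background-flagged spot exists), ticks give single probes, and the grey band is the interquartile range of all 11969 genes (−0.35 to 0.35). Orc1 and Ccne1 lie beyond the 2-fold line, and no gene lies left of the band.

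Where a gene had several usable probes, they mostly agreed. For 14 genes with more than 1 such probe the median gap between the highest and lowest was 0.11, it was under 0.3 for 11 of them, and the largest gap was 0.38 (Orc2). Lig1 was the gene whose probes had opposite signs. In all, 46 of 51 usable probes lay above 0. The share of all probes above 0 was not counted, and the share of all genes was 50.1%.

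The promoters show what the highest and lowest genes carry beside their start sites. RefSeq sequences (build GRCm38.p6, 250 bases before to 50 after the start) were found for 33 of the 41 genes, with 40 start sites. They were searched on both strands for the E2F-type letters TTTCCCGC, TTTGGCGC, TTTCGCGC and TTTGCCGC. Shown 5′ to 3′ are the pair of genes at the top of the set and the pair at its bottom, with E2F letters in capitals, where GCGCGAAA and GCGCCAAA are reverse-strand matches. For Lig1, which has 3 listed starts, the one that holds a match is shown.
Orc1 (chr4:108579204-108579503, + strand): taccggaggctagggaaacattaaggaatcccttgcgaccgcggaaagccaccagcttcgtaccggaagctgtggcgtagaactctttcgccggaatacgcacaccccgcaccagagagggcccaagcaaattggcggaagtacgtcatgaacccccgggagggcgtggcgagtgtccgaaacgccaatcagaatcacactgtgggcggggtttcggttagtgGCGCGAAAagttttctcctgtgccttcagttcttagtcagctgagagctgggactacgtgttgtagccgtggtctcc
Ccne1 (chr7:38107441-38107740, − strand): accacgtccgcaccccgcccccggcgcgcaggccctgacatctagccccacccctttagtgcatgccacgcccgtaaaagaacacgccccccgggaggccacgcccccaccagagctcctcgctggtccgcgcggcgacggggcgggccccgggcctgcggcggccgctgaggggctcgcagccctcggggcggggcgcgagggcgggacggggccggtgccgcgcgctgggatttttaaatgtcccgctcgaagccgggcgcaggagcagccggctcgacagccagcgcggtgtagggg
Pola1 (chrX:93632106-93632405, − strand): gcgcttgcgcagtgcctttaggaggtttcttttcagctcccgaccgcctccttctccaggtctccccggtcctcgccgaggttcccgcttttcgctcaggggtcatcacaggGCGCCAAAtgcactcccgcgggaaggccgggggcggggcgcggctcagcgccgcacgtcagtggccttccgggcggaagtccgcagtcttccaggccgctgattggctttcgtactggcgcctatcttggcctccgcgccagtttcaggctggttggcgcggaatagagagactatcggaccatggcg
Lig1 (chr7:13278576-13278875, + strand): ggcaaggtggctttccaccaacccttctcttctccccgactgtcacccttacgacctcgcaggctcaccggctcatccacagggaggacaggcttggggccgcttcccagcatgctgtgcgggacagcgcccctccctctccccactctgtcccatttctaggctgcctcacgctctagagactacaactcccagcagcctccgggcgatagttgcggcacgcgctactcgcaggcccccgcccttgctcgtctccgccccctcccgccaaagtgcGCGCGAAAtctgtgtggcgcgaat
Orc1, at 1.25, holds 1 match at bases 224 to 231 of the window, and Ccne1, at 1.16, holds none of these exact letters. Pola1, at −0.05, holds 1 at bases 113 to 120, and the Lig1 window, at −0.15, holds 1 at bases 277 to 284. A match thus stood in genes from both ends of the set.

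An E2F match was present in 14 of the 33 genes (42.4%), against 704 of 27025 genes with a promoter (2.6%). The genes with it were Cdc6, Cdt1, E2f2, Gins3, Lig1, Mcm3, Mcm5, Mcm6, Mcm7, Orc1, Pola1, Pold1, Pole2 and Rfc3. Those measured had a median difference of 0.63 over 13 genes, and the measured genes with a promoter but no match had 0.55 over 18. The CCAAT box, searched as CCAAT, was in 21 of 33 genes (63.6%) and in 41.1% of all genes. Letters TTTGAA of the cell cycle homology region, known from mitotic genes, were in 6 (18.2%), against 20.2% of all. The E-box CACGTG, bound by MYC among others, was also in 6, against 8.09% of all. The palindromic element of the glucocorticoid receptor was searched allowing any base at its spacer and at 1 position of each arm. It was in none of the 33 genes and in 0.54% of all genes. Of 20 E2F matches in the 40 windows, 1 overlapped another of these motifs. A match describes letters and does not show binding, and these windows leave distant elements out.

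Other genes of the replication machinery and its control were lower in their median than the set above. Of 58 such genes 55 had a value, with a median of 0.20 and 41 above 0, where 50.1% of all genes lay above 0. By 1.5-fold or more 6 were higher and 2 lower, where 14.5% of all genes were higher and 15.2% lower. The highest were Mybl2, a transcription factor of S phase and mitosis genes, at 20.0 with prednisolone and 11.4 with vehicle (0.81 ± 0.20), and Cdc25a, a phosphatase that activates CDK2, at 8.0 with prednisolone and 4.71 with vehicle (0.76 ± 0.14). None was 2-fold higher, against 5.76% of all genes, and 2 of the 55 were 2-fold lower, against 6.62% of all genes. Pold4, the smallest subunit of polymerase δ, had 6.24 with prednisolone and 21.8 with vehicle, a difference of −1.80 ± 0.20 from 1 probe. This stands apart from Pold1 and Pold2, both above 0, as well as from Pold3 at 0.18 ± 0.14, named after its value was seen. Rb1, the gene of the retinoblastoma protein, had 1.33 with prednisolone and 2.68 with vehicle, or −1.01 ± 0.14, with probes at −1.04 and −0.98. Rb1 was −0.78 with spike-in scaling and −0.87 after normexp, both within 2-fold, and Pold4 was −1.57 with spike-in scaling.

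Genes that supply deoxynucleotides had a median of 0.36 over 13 genes, with 10 above 0 (50.1% of all genes) and 5 at least 1.5-fold higher (14.5% of all genes). Nme1, a nucleoside diphosphate kinase gene, had 41.1 with prednisolone and 15.6 with vehicle (1.39 ± 0.20), and Shmt1, a serine hydroxymethyltransferase gene, had 0.527 with prednisolone and 0.233 with vehicle (1.17 ± 0.15, probes 0.92 and 1.43). After normexp Shmt1 was 0.89, within 2-fold. The lowest were Tk1, of thymidine kinase, at −0.18 ± 0.14 and Dck, of deoxycytidine kinase, at −0.17 ± 0.20, which spike-in scaling turned to 0.05 and 0.06. Genes of mitosis, the stage after replication, had a median of −0.07 over 22 genes, with 7 above 0, none higher and 1 lower by 1.5-fold or more, against the same 50.1%, 14.5% and 15.2% of all genes. Cenpf, a kinetochore protein gene, had 1.60 with prednisolone and 2.70 with vehicle (−0.76 ± 0.20), and Bub1, a spindle checkpoint kinase gene, had 3.73 with prednisolone and 5.26 with vehicle (−0.50 ± 0.20). The highest were Incenp (0.26 ± 0.14) and Nek2 (0.24 ± 0.20). The mitosis median turned to 0.17 with spike-in scaling, where that of the replication genes was 0.72. The gap between these lists was therefore 0.55 with either scaling, and it was not tested.

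**Figure D3:**
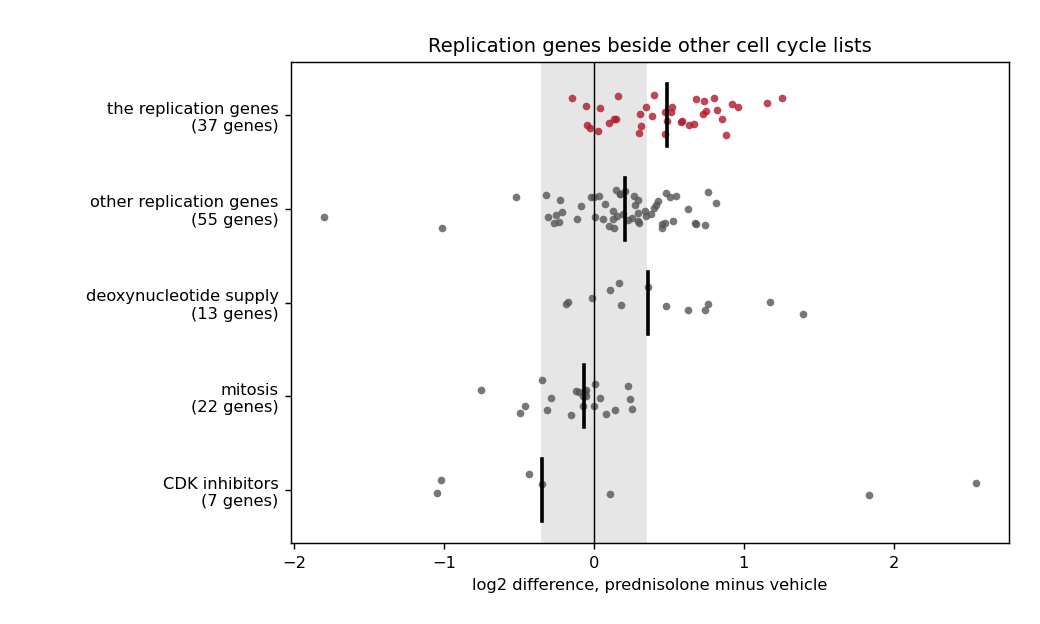
Log2 difference, prednisolone minus vehicle, of single genes (points) in 5 cell cycle lists, with the list median as a bar and the interquartile range of all genes as a grey band. The median is 0.49 for the 37 replication genes, 0.20 for the other replication genes, 0.36 for deoxynucleotide supply, −0.07 for mitosis and −0.35 for the CDK inhibitors.

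**Figure D4:**
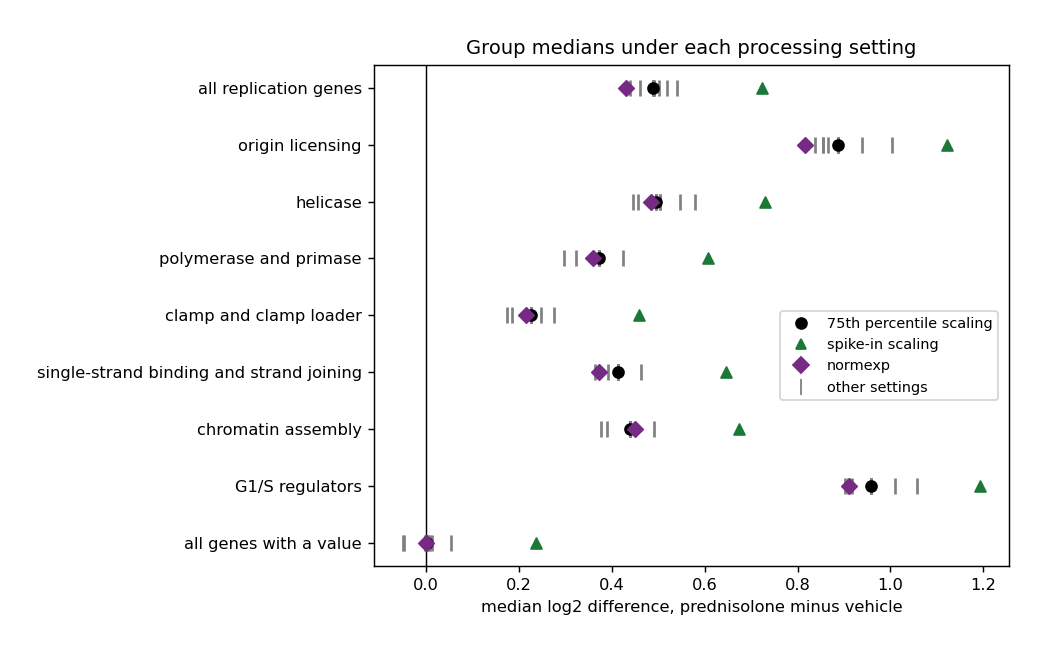
Median log2 difference of each role group under each processing setting. Circles are the 75th percentile scaling used in the text, triangles spike-in scaling, diamonds normexp and ticks the other settings. Spike-in scaling moves every median by 0.23, all genes included, and the clamp and clamp loader group is lowest of the 7 groups in each setting.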

How the data were processed

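Gene expression was measured on 1 Agilent 1-colour array per culture (2 arrays, 1 prednisolone and 1 vehicle, both from GEO's labels). Per the file headers, the deposited intensity values were written by Agilent Feature Extraction 12.0.3.1, which subtracted background and detrended each array. A second deposited table holds the same intensity values multiplied by 1 constant per array. Depth does not apply, and the number of arrays limits the precision.

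Here, each processed signal was divided by its array's 75th percentile (intensities of 386.9 for prednisolone and 400.4 for vehicle) and taken to log2. Control spots were left out, as was any spot flagged as an outlier for itself or its local background, which removed 5879 of 56605 probes. Accessions without version were matched to RefSeq (GRCm38.p6) and named 33767 probes, leaving 22838 unnamed. A gene is the mean of its probes well above background on both arrays. The headers name build mm9, so no array coordinates are given. Differences are prednisolone minus vehicle. Folds of 1.5 and 2 were counted without a test, and the steps were tested on simulated data.

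The genes and lists were chosen with earlier results of these data known. All 41 genes may be named, and of other lists those at least 2-fold apart and the 2 at each end, with others said to be exceptions. Some listed cell type markers are not reported here. The 12 alternatives were 4 other scalings, normexp (limma 3.58.1, offset 50) on median signals because the files hold no mean signal, flag-carrying spots kept, no or a stricter (4 times) filter on dim probes, the brightest or the median probe, the second table and, chosen after seeing the data, spots with a background flag kept but those with a flag of their own left out. Figures and tables used Python 3.11.15, numpy, pandas and matplotlib.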

Additional observations from a re-analysis of the deposited data

How the results depend on the processing

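Scaling on the spike-in probes moved every median by more than the software's error: all genes to 0.24, the 37 replication genes to 0.72, origin licensing to 1.12, helicase to 0.73, polymerase and primase to 0.61, clamp and clamp loader to 0.46, single-strand binding and strand joining to 0.65, chromatin assembly to 0.67, the G1-to-S regulators to 1.19, the other replication genes to 0.44, deoxynucleotide supply to 0.60, mitosis to 0.17 and CDK inhibitors to −0.11. It raised the genes at least 1.5-fold higher to 23 and those at least 2-fold higher to 8, since it adds one value to each gene. With it 24.7% of all genes were 1.5-fold and 9.55% were 2-fold higher. Under the other 11 settings the replication median lay between 0.43 and 0.54, with 31 to 36 genes above 0, 11 to 16 at least 1.5-fold and 2 or 3 at least 2-fold higher, and none 1.5-fold lower. Keeping spots with a flag gave 40 genes a value and put 36 above 0. Single genes moved by more than their error for Orc1 (1.05) and Pola2 (0.36) after normexp, and for Orc2 (1.11), Gins4 (0.65) and Lig1 (0.01) with the brightest probe alone, and the cause was not tested. No paired analysis was possible because each group has 1 array, and for the same reason no replicate could be left out. A signal near background, as of Ccne2, limits what can be read from a dim gene.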

Other observations

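The CDK inhibitor genes, whose products hold back the kinases that start S phase, differed in both directions. All 7 had a value, with a median of −0.35, and 4 of them were at least 2-fold apart. Of these 2 were higher and 2 lower, where 5.76% of all genes were 2-fold higher and 6.62% lower. Cdkn2a, which encodes INK4A and ARF, had a relative signal of 3.13 with prednisolone and 0.535 with vehicle, a difference of 2.55 ± 0.15, with both probes at 2.53 and 2.57. Cdkn2b, which encodes INK4B, had 2.50 with prednisolone and 0.702 with vehicle, or 1.83 ± 0.14. In contrast, Cdkn1b, which encodes p27, had 6.78 with prednisolone and 13.8 with vehicle (−1.02 ± 0.20), and Cdkn1c, which encodes p57, had 0.134 with prednisolone and 0.278 with vehicle (−1.05 ± 0.22). After spike-in scaling Cdkn1b was −0.79 and Cdkn1c −0.81, within 2-fold, and after normexp Cdkn1c was −0.54. Cdkn2a and Cdkn2b were 2.11 and 1.60 after normexp, still more than 2-fold higher. The 2 inhibitors encoded side by side in the Cdkn2 locus were thus higher on the array on which the replication genes were also higher. Cyclin E1 (Ccne1, 1.16) and its inhibitor p27 (Cdkn1b) differed in opposite directions.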
